A study of Bos taurus with 30 samples.

Results

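Jugular blood kept for 24 h at 4 °C was compared with jugular blood kept for 3 to 8 h before the white blood cells were isolated. The comparison took 20 of the 30 libraries of the series: 5 libraries from tubes processed at 24 h, 1 from each of 5 heifers, and 15 libraries from tubes processed at 3, 6 or 8 h, 3 from each heifer. The 24 h libraries were chosen by the time the sources give for them, and the 15 others are the jugular libraries that were left once the 1 h and 24 h tubes had been accounted for. Which of the 15 was kept for 3, 6 or 8 h is not told apart here, so they form 1 pooled group.

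The animals were Angus x Simmental crossbred beef heifers averaging 14 months of age whose estrus had been synchronized with gonadotrophin-releasing hormone, a progesterone insert and prostaglandin F2alpha, and all groups share that treatment. Blood was drawn into K2 EDTA tubes and held on ice, and the peripheral white blood cells (PWBCs) came from the buffy coat after lysis of red cells. PWBCs are a mixture of lymphocytes, monocytes and granulocytes, with platelets carried along, and no cell type was sorted. The libraries measure messenger RNA selected by its poly(A) tail. In a mixture of this kind, fewer cells of a type and less RNA per cell cannot be told apart. The 5 heifers are called A to E, and levels are given as CPM, the count of a gene scaled to a common library size.

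White cells in a stored tube are alive for some time, lose contact with tissue signals, and go on transcribing and degrading messengers at rates that differ between genes. Replication-dependent histone genes are unusual among messengers because their transcripts normally end in a stem-loop rather than in a poly(A) tail, and are made mostly while DNA is copied. T lymphocytes carry short-lived messengers for cytokine receptors and for the transcription factors that keep their identity, and naive T cells read the Wnt pathway through LEF1 and TCF7. Basophils and mast cells are rare granular cells that depend on GATA2.

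The 20 libraries held between 12675307 and 19488576 counts. Total counts were 15710000 ± 2005000 at 24 h (SD, n = 5) and 17320000 ± 1366000 at 3 to 8 h (SD, n = 15), a mean difference within heifers that did not pass an exact permutation test (two-sided, p = 0.0635, adjusted p = 0.190 over 3 library measures, smallest p allowed 0.000977). Genes at 1 CPM or more numbered 13160 to 13464 at 24 h and 13062 to 13487 at 3 to 8 h (exact permutation p = 0.251, adjusted p = 0.269). The 10 most counted genes took 3.63% to 3.98% of counts at 24 h and 3.52% to 3.94% at 3 to 8 h (exact permutation p = 0.269, adjusted p = 0.269). All 20 libraries resembled the 1 h libraries of their own heifer more than those of any other heifer. Markers of T and NK lymphocytes, B lymphocytes, monocytes, granulocytes, platelets and red cells were all counted, as a mixed white cell sample would have them. A library of heifer A stood apart among the 15, with 2053 CPM summed over 6 neutrophil markers against a median of 190.5 and a next highest value of 740.9.

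Storage for 24 h changed 172 of 14018 genes tested, 60 upwards and 112 downwards. A gene was called when its false discovery rate (FDR) was under 0.05 in both edgeR and DESeq2 and its edgeR log2 fold change was beyond 0.5 in either direction. The share of genes called was 1.23%, made up of 0.428% called higher and 0.799% called lower. Over all genes tested, log2 fold changes had a median of 0.0015. Of the 60 genes that rose, 17 rose by more than 1 on the log2 scale, and of the 112 that fell, 11 fell by more than 1.

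**Figure D1:**
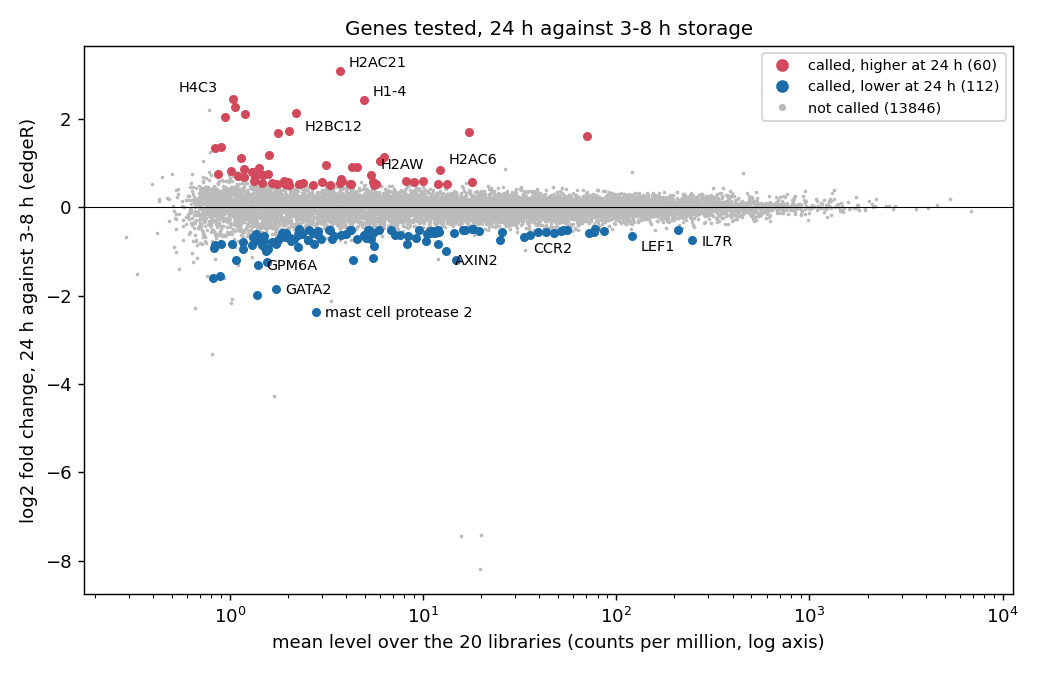
Each point is 1 of the 14018 genes tested, with its mean level over the 20 libraries on a logarithmic horizontal axis (CPM) and its edgeR log2 fold change on the vertical axis, 24 h against 3 to 8 h. Red points are the 60 genes called higher, blue points the 112 called lower, and grey points were not called, including 5 genes below -3.

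The direction was shared across animals for most calls. In 57 of the 60 genes that rose and 108 of the 112 that fell, the 24 h library lay on the same side of its heifer's 3 to 8 h mean in all 5 heifers. A fit with heifer as a block favours genes that move alike in every heifer, so this agreement is not separate support for the calls. The size was not even across animals. Over the 112 genes that fell, the median log2 difference was -0.99 in heifer A and between -0.54 and -0.46 in the other 4, and over the 60 that rose it was 0.83 in heifer A and between 0.46 and 0.62 in the others, with 0.5 CPM added before taking logs. Without heifer A, 59 genes were called, 29 higher and 30 lower. The count was 63 when the 3 tubes of a heifer were summed to 1, and 28 when heifer was left out of the model, the block of libraries from 1 animal having been checked by correlation.

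A name was at hand for 69 of the 172 called genes, 18 that rose and 51 that fell. Names came from annotation columns of the study's tables. For 177 genes tested, the only such tables were those of genes the study itself called between 24 h and 1 h on these animals. Of these 177, 63 were called here, so a gene named that way was more likely to have changed. Among the 1630 genes tested whose names came from a table ordered by identifier, 10 were called, or 0.613%, 1 higher and 9 lower. Counts over named lists below are to be read beside that share.

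Histone genes made up 13 of the 18 named genes that rose. Of 16 histone genes tested, 13 were called higher and none lower, with log2 fold changes around a median of 1.24. The 13 included the linker histone H1-4 and core histones of the H2A, H2B, H3 and H4 families. Among them, H4C3 and H4C8 passed the filter on level only through libraries at 24 h. Of the 16, 15 carried names only through tables of genes the study called, so their direction here is not independent evidence. The 16th, MACROH2A2, a variant H2A made outside DNA replication, had a log2 fold change of 0.06 (edgeR FDR = 0.873).

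H2AC21, a core H2A histone gene on chromosome 3 (20724190 to 20724582, ARS-UCD1.2), rose the most of all named genes. Its level was 9.80, 10.1, 7.54, 15.4 and 11.6 CPM at 24 h in heifers A to E, against 0.629 to 3.85 CPM at 3 to 8 h with a median of 1.07. The groups did not overlap, which was true of 0.235% of all genes tested, and of 0.0713% in the direction of a rise. The log2 fold change was 3.09 (an 8.49-fold rise, DESeq2 standard error 0.26), with FDR = 5.56e-07 in edgeR and 1.82e-29 in DESeq2. At 1 h the level was 0.853 ± 0.151 CPM (SD, n = 5).

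H1-4, the linker histone that binds DNA between nucleosomes, lies on chromosome 23 (31796098 to 31796757). It was measured at 10.8, 11.9, 8.32, 14.8 and 16.2 CPM at 24 h in heifers A to E. The 3 to 8 h libraries ran from 0.891 to 7.57 CPM with a median of 2.07, so the groups did not overlap here either. The log2 fold change was 2.43 (FDR = 0.000168 in edgeR and 1.56e-09 in DESeq2), and the 1 h level was 1.16 ± 0.514 CPM (SD, n = 5).

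H2B genes of the same chromosome followed. H2BC12 (chromosome 23, 31354601 to 31355275) stood at 3.65, 5.33, 3.31, 6.50 and 7.10 CPM at 24 h and at 0.359 to 3.49 CPM, median 1.04, at 3 to 8 h (log2 fold change 2.12, FDR = 6.21e-05 in edgeR). Its ranges overlapped through heifer C at 24 h and 1 library of heifer E at 3 to 8 h. H2BC14 (chromosome 23, 30948090 to 30995670) stood at 3.10, 3.68, 3.70, 5.93 and 4.58 CPM at 24 h, above all 15 earlier libraries, which spanned 0.672 to 2.43 CPM (log2 fold change 1.73, FDR = 2.60e-05 in edgeR). H2BC13 rose by 1.69 on the log2 scale, from 1.15 ± 0.601 CPM at 3 to 8 h (SD, n = 15) to 3.66 ± 1.32 CPM at 24 h (SD, n = 5), with FDR = 0.000789 in edgeR.

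Genes of the H4 and H3 families also rose. H4C3 (chromosome 23, 31847243 to 31847554) went from a median of 0.413 CPM, range 0.0521 to 1.60, to 2.98, 1.32, 1.95, 2.52 and 4.58 CPM in heifers A to E (log2 fold change 2.44, FDR = 2.60e-05 in edgeR and 6.94e-12 in DESeq2). H4C8 rose by 1.37, H3C6 by 1.11 and H4C4 by 0.96 on the log2 scale (FDR = 0.00113, 0.00113 and 0.000225 in edgeR). In each of these 4 genes the 24 h library was above all 3 earlier libraries of its heifer in all 5 heifers, and the pooled ranges overlapped. H4C3 and H4C8 were not called without heifer E (edgeR FDR = 0.000203 and 0.00527, so the loss lay in DESeq2), and H4C4 was not called without the heifer block (edgeR FDR = 0.0643). H4C3 and H4C8 exceeded 1 CPM in 5 libraries only with the 24 h libraries counted. They entered the test through the group where they were high, so their calls are not separate support for a rise.

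The other 4 called histone genes rose by less than 1 on the log2 scale. H2AC6 was at 18.6, 14.4, 14.9, 22.8 and 18.6 CPM at 24 h and at 4.27 to 14.9 CPM, median 10.4, at 3 to 8 h (log2 fold change 0.84, FDR = 0.000368 in edgeR). H2BC4 rose by 0.60, from 8.83 ± 1.63 CPM at 3 to 8 h (SD, n = 15) to 13.2 ± 1.38 CPM at 24 h (SD, n = 5), with FDR = 0.000121 in edgeR. H2AW and H2BU1, neighbours on chromosome 7 between 2573114 and 2575265, rose by 0.73 and 0.86 (FDR = 0.000374 and 0.00449 in edgeR). The 24 h levels of H2AW, from 6.32 to 8.27 CPM, lay above all 15 earlier values, which ended at 5.93 CPM.

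Of the 13 called histone genes, 10 lie on chromosome 23 between 30948090 and 31847554, 2 on chromosome 7 and 1 on chromosome 3. In 12 of the 13 the 24 h library was above all 3 earlier libraries in all 5 heifers, a pattern seen in 1.48% of all genes tested, and in 4 the groups did not overlap. H2BC18 was 4.60-fold higher with FDR = 0.000789 in edgeR but had no adjusted p in DESeq2 and was not called. H4C14 had a log2 fold change of 0.36 (edgeR FDR = 0.205). Histone genes have near-identical copies and lie close together, and fragments were counted without regard to strand, so the split of counts among copies is uncertain. Summed over the 16 genes, histone messengers took 87.5, 85.0, 74.8, 116.2 and 108.6 CPM at 24 h, against 28.7 to 59.7 CPM with a median of 38.5 at 3 to 8 h. At 1 h the sum was 35.7 ± 4.51 CPM (SD, n = 5). As 15 of the 16 were named only through tables of genes the study called, this sum is not independent evidence. In each heifer the last of the 3 earlier libraries in name order had the highest earlier sum, at 44.05, 37.1, 45.21, 51.25 and 59.68 CPM. With CPM above 1 required in all 20 libraries, 4 histone genes were called. That filter removes genes before the test, among them H2AC21, H1-4 and H2BC12, each under 1 CPM in some 3 to 8 h library. With the 3 tubes of a heifer summed the count was 6. H4C3, H4C8, H3C6, H2BC12, H2BC13, H2BC14 and H2BU1 were no longer called there, although their edgeR FDR ran from 0.000226 to 0.0368. H2AC6 was not called without the heifer block (edgeR FDR = 0.101). Without heifer A, 14 histone genes were called.

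**Figure D2:**
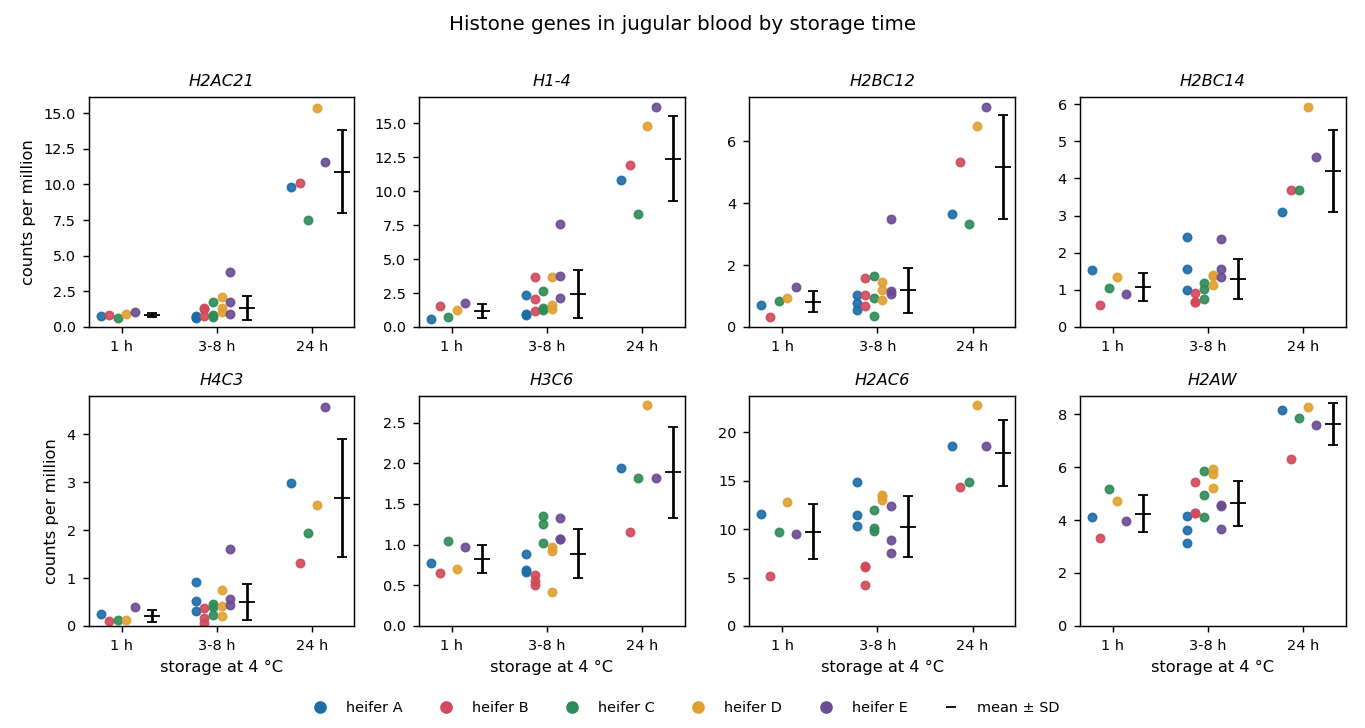
Level of 8 histone genes (CPM, each vertical axis from 0) in jugular blood processed at 1 h, 3 to 8 h and 24 h. Each point is a library, coloured by heifer and shifted sideways by heifer, and the black bar is the mean with its SD (n = 5, 15 and 5); H2AC21, H1-4, H2BC14 and H2AW have all 24 h points above all 3 to 8 h points.

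Genes that act with histones or with DNA copying were not called. In all, 3 genes of histone messenger processing and histone exchange were tested, SLBP, the protein that binds the histone stem-loop, ASF1A and SSRP1. SLBP was measured at 80.2 CPM on average at 3 to 8 h and 83.3 CPM at 24 h (edgeR FDR = 0.504), and SSRP1 at 183.1 and 191 CPM (edgeR FDR = 0.487). None of 27 genes of DNA replication and mitosis was called. Their values had a median of -0.07 on the log2 scale, and 20 of the 27 were below 0. The smallest edgeR p in that list belonged to CLSPN, a checkpoint protein of the replication fork. CLSPN went from 17.6 ± 2.71 CPM at 3 to 8 h (SD, n = 15) to 14.4 ± 2.63 CPM at 24 h (SD, n = 5). Its FDR was 0.101 in edgeR and 0.0365 in DESeq2, so only DESeq2 passed. MKI67, the proliferation marker Ki-67, averaged 398.2 CPM at 3 to 8 h and 358 CPM at 24 h (edgeR FDR = 0.340).

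The other 5 named genes that rose did so by 0.50 to 0.60 on the log2 scale. They were CRYGS, a lens crystallin, SLC9A5, a sodium and proton exchanger, NOX1, an NADPH oxidase, SLC23A3, a member of the ascorbate transporter family, and CCL1, a chemokine. CCL1 stood at 2.8, 4.89, 4.16, 4.92 and 3.79 CPM at 24 h and at 1.45 to 4.81 CPM at 3 to 8 h, so the ranges overlapped widely (log2 fold change 0.51, FDR = 0.0239 in edgeR). Its call was lost when heifer A, B, D or E was left out, without the heifer block and with the tubes summed. The 2 largest rises among 42 genes without a name were ENSBTAG00000048412 (log2 fold change 2.26, FDR = 6.89e-05 in edgeR) and ENSBTAG00000052895 (2.10, FDR = 0.000762). The first went from a median of 0.504 CPM to 2.50, 1.98, 0.974, 2.97 and 4.73 CPM, and its call was lost without heifer E. Both calls were lost when the 3 tubes of a heifer were summed (edgeR FDR = 0.0120 and 0.00399). Both genes passed the filter on level only with libraries at 24 h counted, the group where they were high.

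Markers of T and natural killer (NK) lymphocytes fell in part. Of 22 tested, 7 were called lower and none higher, the median log2 fold change was -0.47, and 21 of the 22 values were below 0. On the edgeR FDR alone, with no threshold on the fold change, 15 of the 22 were lower. Of the 22, 14 were named only through tables of genes the study called. The other 8 held no called gene, had 7 values below 0 and a median log2 fold change of -0.31, against 0.0015 over all genes. Without heifer A, 3 of the 22 were called.

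IL7R, the receptor that carries the survival signal of interleukin 7 to T cells, was the most highly counted of the called markers. It stood at 104.7, 237.4, 202.6, 101.6 and 186.3 CPM at 24 h in heifers A to E, against 159.2 to 347.5 CPM with a median of 295.3 at 3 to 8 h. The pooled ranges overlapped because heifers differ in level, but each 24 h library was below the 3 earlier libraries of its own heifer, as in 2.56% of all genes tested. The log2 fold change was -0.74 (DESeq2 standard error 0.10), with FDR = 0.00113 in edgeR and 7.98e-10 in DESeq2. At 1 h its level was 301.8 ± 71.3 CPM (SD, n = 5).

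BCL11B, a transcription factor that fixes T lineage identity, fell by 0.74 on the log2 scale, from a median of 26.9 CPM, range 15.9 to 40.7, to 7.00, 25.3, 17.5, 16.7 and 17.8 CPM (FDR = 0.0122 in edgeR). The lowest 24 h value was that of heifer A, and the call was lost without heifer E. CRTAM, an adhesion molecule of cytotoxic cells, went from 11.5 ± 2.64 CPM at 3 to 8 h (SD, n = 15) to 7.51 ± 1.68 CPM at 24 h (SD, n = 5), a log2 fold change of -0.61 (FDR = 0.00434 in edgeR). TRBV15, a variable segment of the T cell receptor beta chain, fell by 0.61 (FDR = 0.0277), at 2.58 CPM on average before and 1.70 CPM after, a call lost without heifer A, B, C or D. Without the heifer block the calls of IL7R, BCL11B, CRTAM and TRBV15 were lost (edgeR FDR from 0.122 to 0.574), and with the tubes summed those of BCL11B and TRBV15 (edgeR FDR = 0.108 and 0.0572). The 3 called markers left, named to complete the count, were GATA3 (-0.58), EOMES (-0.57) and CD28 (-0.53).

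Lineage markers with smaller differences lay just under the fold threshold. CD4, the co-receptor of helper T cells, averaged 235.2 CPM at 3 to 8 h and 169.7 CPM at 24 h (log2 fold change -0.48, FDR = 0.0105 in edgeR), and CD8A, the co-receptor of cytotoxic T cells, 45.5 and 33.8 CPM (-0.47, FDR = 0.00357). GZMB, a granule protease, had the largest fitted difference of the list, -1.17, but did not pass the test (edgeR FDR = 0.0914). HOPX was the 1 member with a value above 0 (0.07, FDR = 0.539). Summed over the 22 genes, the level was 930, 1343, 1365, 1258 and 1186 CPM at 24 h and 1419 to 1804 CPM, median 1655, at 3 to 8 h. All 5 sums at 24 h were below all 15 earlier ones. As 14 of the 22 were named only through tables of genes the study called, this sum is not independent evidence.

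**Figure D3:**
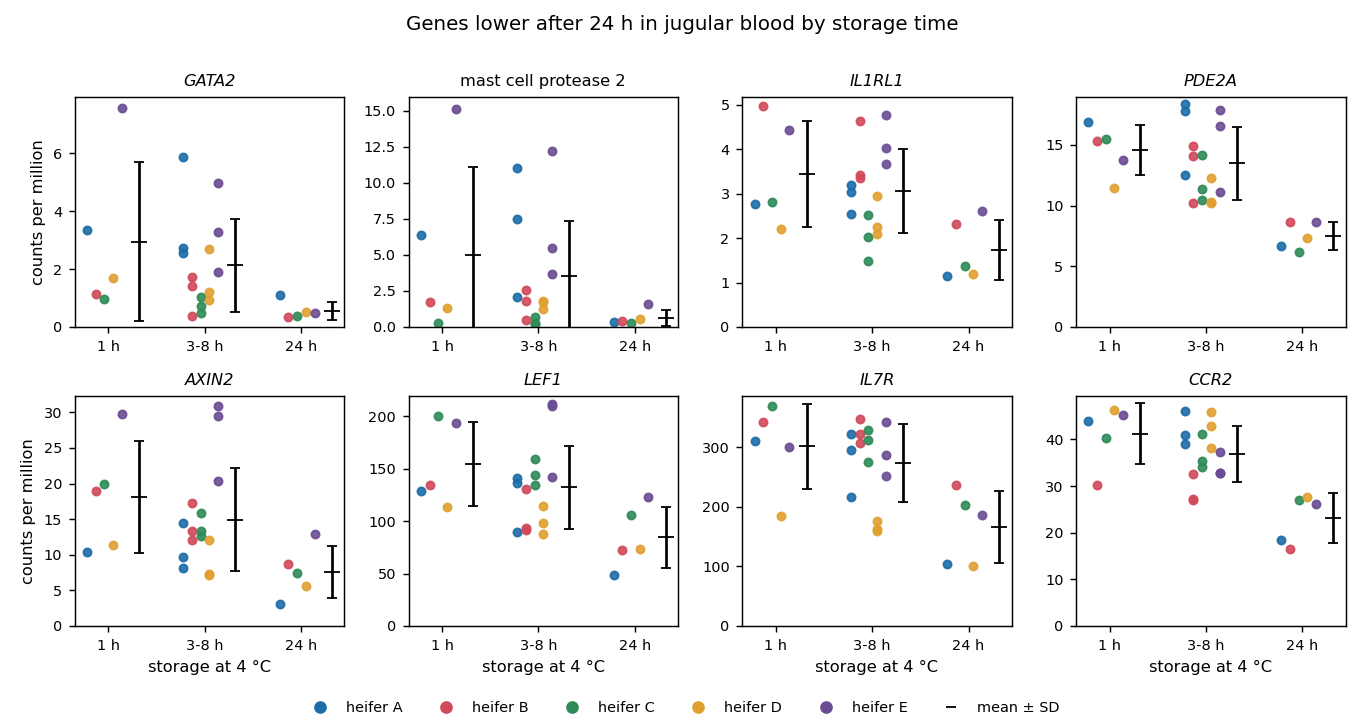
Level of 8 genes that were lower at 24 h (CPM, each vertical axis from 0) in jugular blood processed at 1 h, 3 to 8 h and 24 h. Each point is a library, coloured and shifted by heifer, and the black bar is the mean with its SD (n = 5, 15 and 5); PDE2A has all 24 h points below all 3 to 8 h points, and GATA2 and mast cell protease 2 spread widely before 24 h.

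Receptors for chemokines and cytokines fell in part. Of 25 tested, 11 were called lower and none higher, and the median log2 fold change was -0.49. Of the 25, 13 were named only through tables of genes the study called. Of the 12 others 1 was called, IL18R1 (-0.56), and their median was -0.16. Without heifer A, 4 of the 25 were called.

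The largest fall in the list was IL23R, the receptor for interleukin 23 on interleukin 17 producing cells. It was low throughout, at 0.730, 0.934, 0.974, 1.07 and 0.394 CPM at 24 h and 0.504 to 4.04 CPM, median 1.63, at 3 to 8 h (log2 fold change -0.99, FDR = 0.0306 in edgeR). In 1 heifer the 24 h library was above the mean of the earlier 3, and the call was lost when heifer A, C or E was left out, without the block and with the tubes summed. By contrast CCR2, the receptor that draws monocytes and some T cells towards CCL2, went from a median of 37.4 CPM, range 27.1 to 46.0, to 18.4, 16.4, 27.0, 27.7 and 26.2 CPM. Its log2 fold change was -0.68, with FDR = 0.000225 in edgeR, and the call held in the 15 alternatives run for it.

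Other called receptors were CCR4 (-0.62), ACKR3 (-0.58), CXCR6 (-0.57), IL17RB (-0.63), IL6ST (-0.53) and, described with other groups, IL7R and IL1RL1. IL6ST, the shared signal chain of the interleukin 6 family, averaged 55.9 ± 10.3 CPM (SD, n = 15) at 3 to 8 h and 39.7 ± 12.4 CPM (SD, n = 5) at 24 h, with FDR = 0.0150 in edgeR. CCR7, which guides naive lymphocytes to lymph nodes, was lower on the edgeR FDR alone (-0.38, FDR = 0.0302). CX3CR1, CCR3 and S1PR5 had values of 0.02, 0.11 and 0.02 on the log2 scale and did not pass the test (edgeR FDR = 0.916, 0.403 and 0.935).

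Of 16 genes of Wnt and Notch signalling, 5 were called lower, AXIN2, JAG1, LEF1, FZD7 and TLE1, and none higher. The median of the 16 was -0.22. Of the 16, 12 were named apart from the study's calls, 2 of these were called, FZD7 and TLE1, and the median of the 12 was -0.15. Without heifer A, 3 of the 16 were called.

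AXIN2, a brake on beta-catenin that is itself switched on by Wnt signals, had the largest fall of the list. It stood at 3.10, 8.68, 7.47, 5.68 and 12.9 CPM at 24 h and at 7.14 to 30.9 CPM, median 13.3, at 3 to 8 h. Heifers differed in level, with the highest values in heifer E at each time, and each 24 h library was below the 3 earlier ones of its heifer. The log2 fold change was -0.98 (FDR = 0.00323 in edgeR and 5.69e-07 in DESeq2). The 1 h level was 18.1 ± 7.83 CPM (SD, n = 5). AXIN2 is on chromosome 19 (62212833 to 62240091).

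LEF1, the DNA-binding partner of beta-catenin in naive T cells, went from a median of 134.3 CPM, range 87.3 to 211.5, to 48.9, 72.8, 105.8, 73.4 and 122.7 CPM (log2 fold change -0.66, FDR = 0.0122 in edgeR). Its call was lost without the heifer block and with the tubes summed (edgeR FDR = 0.267 and 0.0526), and those of AXIN2 and JAG1 without the block (edgeR FDR = 0.284 and 0.125). TCF7, its close relative, averaged 254.7 and 214.2 CPM (-0.25, FDR = 0.0484) and did not reach the fold threshold. JAG1, a ligand of Notch receptors, fell by 0.71, from 5.95 ± 1.49 CPM at 3 to 8 h (SD, n = 15) to 3.61 ± 0.844 CPM at 24 h (SD, n = 5), with FDR = 0.00203 in edgeR. FZD7, a Wnt receptor, fell by 0.64 near the threshold of the test (FDR = 0.0470), a call lost without heifer A, B, C or E, without the block and with the tubes summed, and TLE1, a co-repressor that binds LEF1, by 0.53 (FDR = 0.00501). RBPJ, the DNA-binding partner of Notch, was lower by 0.30 (FDR = 0.000789) and so was not called.

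Of the 5 tested markers of eosinophils, basophils and mast cells, 2 were called lower, GATA2 and IL1RL1. Both were named only through tables of genes the study called. GATA2, the transcription factor of blood progenitors, basophils and mast cells, stood at 1.096, 0.330, 0.390, 0.505 and 0.473 CPM at 24 h. At 3 to 8 h it ran from 0.392 to 5.87 CPM with a median of 1.71, and at 1 h from 0.978 to 7.57 CPM with a median of 1.68. The pooled ranges overlapped, and each 24 h library was below the 3 earlier ones of its heifer. The log2 fold change was -1.85 (DESeq2 standard error 0.38), with FDR = 0.0112 in edgeR and 0.000130 in DESeq2. The call was lost without the heifer block (edgeR FDR = 0.190) and when the 3 tubes of a heifer were summed (edgeR FDR = 0.0110, the loss lying in DESeq2). GATA2 is on chromosome 22 (59346928 to 59355012).

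IL1RL1, the receptor for interleukin 33, was at 1.16, 2.31, 1.36, 1.199 and 2.60 CPM at 24 h and at 1.49 to 4.78 CPM, median 3.04, at 3 to 8 h (log2 fold change -0.84, FDR = 0.00226 in edgeR). Its call was lost without the heifer block (edgeR FDR = 0.193) and with the tubes summed (edgeR FDR = 0.0280, the loss lying in DESeq2). The gene described as mast cell protease 2 (ENSBTAG00000050871, chromosome 21, 34727438 to 34730647), a granule enzyme, had the largest fall of all named genes, -2.37. It stood at 0.365, 0.385, 0.260, 0.568 and 1.58 CPM at 24 h and at 0.203 to 12.2 CPM, median 1.77, at 3 to 8 h, with FDR = 0.0252 in edgeR and 0.00303 in DESeq2. Before 24 h the values of heifer C stayed under 0.658 CPM while those of heifer E reached 12.2 CPM, and the call was lost when any 1 heifer was left out, without the block and with the tubes summed.

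The other 3 markers of this group did not pass the test. CCR3, the eotaxin receptor of eosinophils and basophils, had a log2 fold change of 0.11 (edgeR FDR = 0.403), IL5RA of -0.16 (FDR = 0.719) and KIT of -0.28 (FDR = 0.0930). The summed level of the 5 genes was 43.5 to 90.6 CPM at 24 h and 44.3 to 97.2 CPM at 3 to 8 h.

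Monocyte markers were lower in part. Of 10 tested, CCR2 was called, and CD14, VCAN, LGALS3 and CST3 were lower on the edgeR FDR alone. Named apart from the study's calls were 7 of the 10, and none of these was called. CD14, the co-receptor for bacterial lipopolysaccharide, averaged 61.9 CPM at 3 to 8 h and 43.9 CPM at 24 h (log2 fold change -0.46, FDR = 0.0396). FCGR3A and CD68 had values of -0.07 and -0.03 (edgeR FDR = 0.415 and 0.947). The summed level of the list was 828.4, 678.8, 1029, 980.7 and 787.2 CPM at 24 h and 772.5 to 1422 CPM, median 1064, at 3 to 8 h, lower at 24 h than the heifer's earlier mean in 5 of 5 heifers.

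Genes of pattern recognition and the inflammasome gave 1 call in 15, P2RX7, the channel opened by extracellular ATP. It went from 4.56 ± 1.27 CPM at 3 to 8 h (SD, n = 15) to 3.18 ± 0.849 CPM at 24 h (SD, n = 5), a log2 fold change of -0.52 (FDR = 0.0294 in edgeR), and the call was lost without heifer A, B or E, without the block and with the tubes summed. NLRC4, an inflammasome protein, was lower by 0.45 (FDR = 0.00319), under the fold threshold. TLR4 had a value of -0.41 (FDR = 0.145). The median of the 15 was -0.26. Named apart from the study's calls were 10 of the 15, and none of these was called.

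Immediate early and feedback genes, which respond within minutes to many stimuli, gave 2 calls in 21, both lower, and no rise. Named apart from the study's calls were 15 of the 21, and none of these was called. DUSP7, a phosphatase that switches off ERK kinases, stood at 41.1, 73.6, 55.3, 50.6 and 65.2 CPM at 24 h and at 65.2 to 98.2 CPM, median 84.1, at 3 to 8 h (log2 fold change -0.55, FDR = 6.21e-05 in edgeR and 2.31e-14 in DESeq2), a call lost without heifer A. CITED2, which binds the co-activators CBP and p300, was at 46.1, 57.8, 69.7, 56.4 and 66.4 CPM at 24 h and at 69.0 to 97.9 CPM, median 85.2, before (-0.50, FDR = 0.00113), and it crossed under the fold threshold without heifer A, without heifer D or without the library of heifer A rich in neutrophil markers. NR4A1, NR4A2 and PPP1R15A, genes that rise in stimulated cells, had values of -0.04, 0.16 and -0.10 (edgeR FDR = 0.786, 0.354 and 0.451).

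Chemokines and cytokines gave 1 rise, CCL1, and 1 fall, NRG1, in 14. Named apart from the study's calls were 7 of the 14, and none of these was called. NRG1, a growth factor of the epidermal growth factor family, went from a median of 16.9 CPM to 12.5, 9.89, 14.5, 8.52 and 14.7 CPM (log2 fold change -0.50, FDR = 0.0233), and its call was lost without heifer A, B or D, without the block and with the tubes summed. CXCL5 and CXCL8, which attract neutrophils, were higher on the edgeR FDR alone, by 0.47 and 0.41 (FDR = 0.0187 and 0.0341), at 8.83 and 39.4 CPM on average at 24 h against 6.25 and 28.9 CPM before. IL1B had a fitted value of 0.43 but lower pooled means at 24 h, 37.0 against 57.7 CPM, and did not pass the test (edgeR FDR = 0.748).

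Among genes outside these lists, PDE2A, which breaks down cyclic nucleotides, separated the groups fully, and groups that did not overlap in this direction made up 0.164% of all genes tested. PDE2A stood at 6.69, 8.68, 6.17, 7.32 and 8.68 CPM at 24 h and at 10.2 to 18.3 CPM, median 12.5, at 3 to 8 h (log2 fold change -0.83, FDR = 0.00116 in edgeR and 1.73e-07 in DESeq2). ATP4B, the beta subunit of the gastric proton pump, fell by 0.77, from 11.5 ± 3.11 CPM at 3 to 8 h (SD, n = 15) to 6.74 ± 2.12 CPM at 24 h (SD, n = 5), with FDR = 0.000447 in edgeR (0.109 without the block, where it was not called). GPM6A, a membrane glycoprotein known from neurons, fell by 1.31, from 1.62 ± 0.608 CPM at 3 to 8 h (SD, n = 15) to 0.691 ± 0.481 CPM at 24 h (SD, n = 5), with FDR = 0.0264, a call lost without heifer A, B, C or D, without the block and with the tubes summed. BACE2, a membrane protease, fell by 0.85 near 1 CPM (FDR = 0.0379) and its call was lost when any 1 heifer was left out, without the block and with the tubes summed.

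The thrombin receptor F2R was the 1 called gene among 13 platelet markers, and it fell. It stood at 35.3, 73.1, 63.0, 47.5 and 47.7 CPM at 24 h and at 51.9 to 102.2 CPM, median 77.0, at 3 to 8 h (log2 fold change -0.58, FDR = 0.00149), a call lost without heifer A and without the block (edgeR FDR = 0.0929). GNG11 and NRGN, also platelet markers, were higher on the edgeR FDR alone, by 0.33 and 0.36 (FDR = 0.00633 and 0.0300). VWF, the adhesive protein of platelet granules, had a value of 0.37 (FDR = 0.132). Named apart from the study's calls were 10 of the 13 platelet markers, and none of these was called. Of the 13 values, 10 were above 0, and the median was 0.09, and the summed level was higher at 24 h than the earlier mean in 5 of 5 heifers, at 982.1 to 1422 CPM against 831.9 to 1657 CPM.

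EPAS1, an oxygen-sensitive transcription factor also known as HIF-2 alpha, was the 1 called gene among 11 of hypoxia and glycolysis. It went from a median of 18.3 CPM, range 13.04 to 27.3, to 11.7, 11.7, 13.1, 12.9 and 17.8 CPM, a log2 fold change of -0.50 (FDR = 0.00419) at the edge of the fold threshold that was not called without heifer A, without the block or with the tubes summed. Glycolytic enzymes had small values, with PGK1 lower by 0.14 (FDR = 0.0413) and PKM and PFKP at -0.13 and -0.07 (edgeR FDR = 0.330 and 0.405).

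Of 61 genes without a name that fell, the largest falls were ENSBTAG00000007439 (-1.995, FDR = 0.0130 in edgeR) and ENSBTAG00000052663 (-1.59, FDR = 0.0393). The first had no count in the 24 h library of heifer A and 0.220, 0.715, 0.442 and 0.710 CPM in heifers B to E, against 0.531 to 4.59 CPM with a median of 1.67 at 3 to 8 h. Its call was lost without heifer A or E, and that of the second without heifer A, B, C or E, and both without the block and with the tubes summed.

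**Figure D4:**
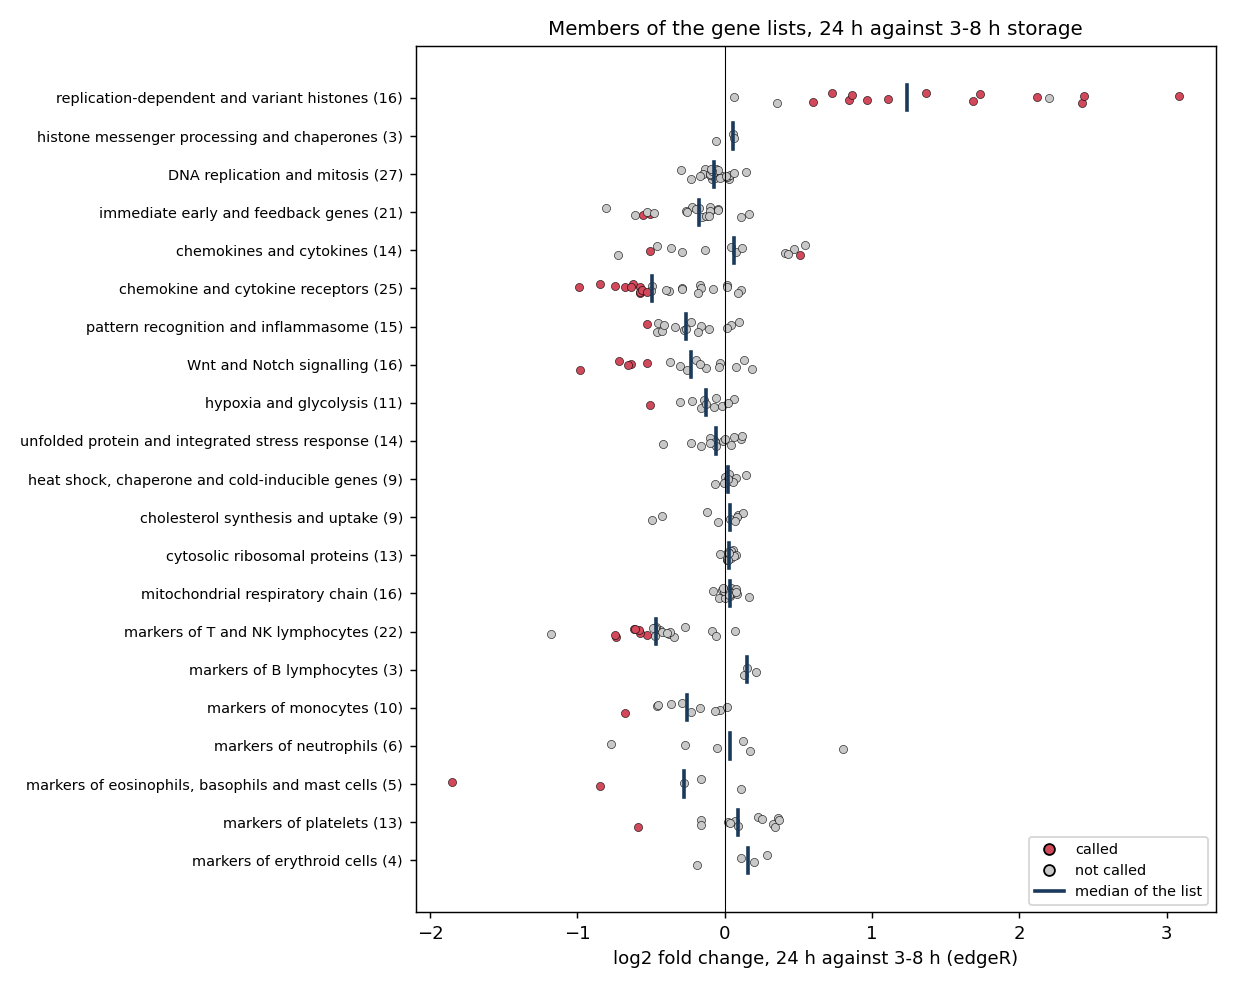
Gene lists, 21 in all, in rows: each point is the edgeR log2 fold change of a member, 24 h against 3 to 8 h, red where called and grey where not, the vertical bar is the median of the list, and the number of members tested follows each name. Called points lie to the right for histones and to the left for receptors, T and NK markers and Wnt and Notch genes, while ribosomal and respiratory chain genes lie close to 0.

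Several groups held no call. None of 13 cytosolic ribosomal protein genes was called, with values from -0.03 to 0.08 on the log2 scale, and none of 16 respiratory chain genes, with values from -0.08 to 0.16. RPL5 had the smallest p of the ribosomal list (0.08, edgeR FDR = 0.354) and UQCRB of the respiratory list (0.07, FDR = 0.393). Among 9 heat shock, chaperone and cold-inducible genes the values ran from -0.06 to 0.14, with HSPB8 at 0.14 (FDR = 0.296). Among 14 genes of the unfolded protein and integrated stress responses, ERN1, the endoplasmic reticulum stress sensor IRE1, was lower by 0.42 (FDR = 0.00859), under the fold threshold. None of 9 genes of cholesterol synthesis and uptake was called, and their median was 0.03.

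Markers of 3 other cell types held no call either. CD79A, FCRL5 and STAP1, the 3 B lymphocyte markers tested, had values of 0.13, 0.15 and 0.21 (edgeR FDR = 0.126, 0.131 and 0.192). Their sum was 1090 CPM in heifer A and 761.8 to 862.4 CPM in the others at 24 h, against 733.4 to 855.4 CPM at 3 to 8 h. The 4 erythroid markers summed to 24.6 to 69.6 CPM at 24 h and 23.9 to 63.8 CPM before, with TMCC2 at 0.29 on the log2 scale (FDR = 0.214). The 6 neutrophil markers summed to 165.8 to 319.1 CPM at 24 h and 116 to 2053 CPM before, and FFAR2 had the smallest p among them (-0.77, FDR = 0.0951). The part of these shifts in marker levels in the falls described above was not tested.

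**Figure D5:**
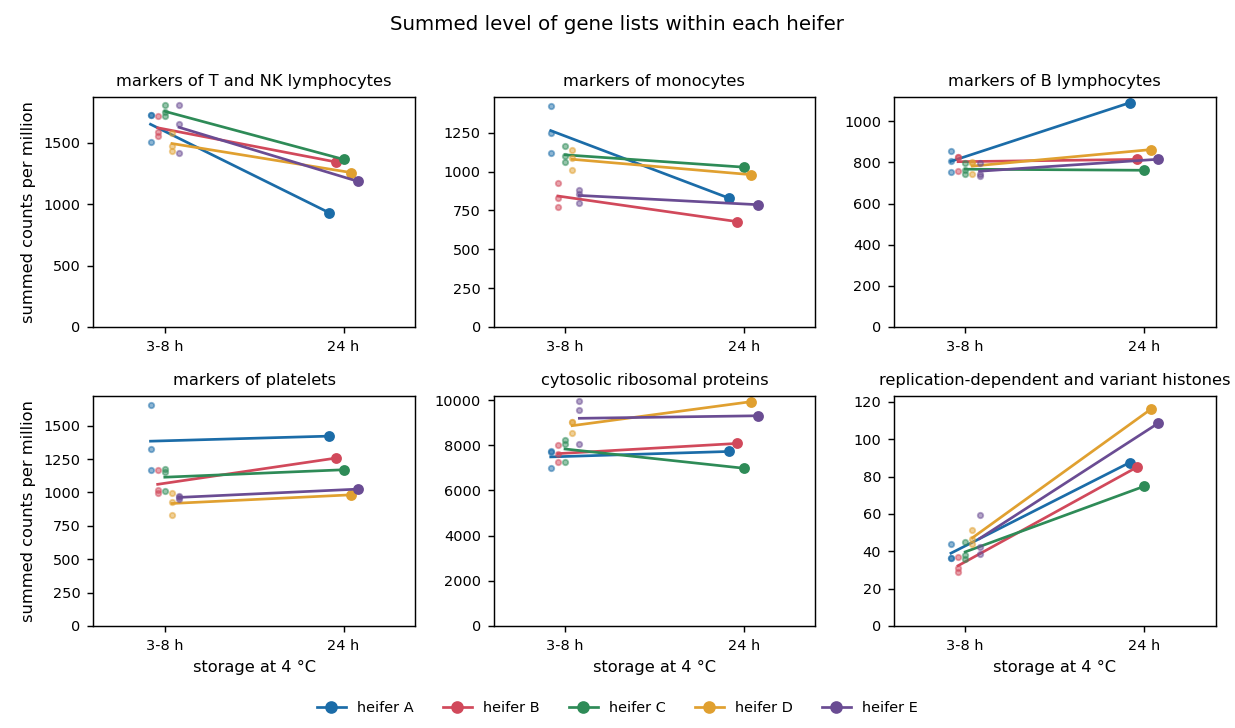
Summed level (CPM, each vertical axis from 0) of 6 gene lists in each heifer. Most members of the histone list and of the T and NK list were named only through tables of genes the study called. Small points are the 3 libraries processed at 3 to 8 h, lines run from their mean to the 24 h library (large point); sums for T and NK markers and for monocyte markers go down in 5 of 5 heifers, those for histones and platelet markers go up in 5 of 5, and heifer A has the steepest fall of T and NK markers and the highest B lymphocyte sum at 24 h.

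Transcript length was set beside the difference in the 1630 genes named from the table ordered by identifier. The median log2 fold change was 0.01 in the 409 genes with the shortest transcripts (327 to 1634 bases) and -0.03 in the 408 with the longest (3499 to 17671 bases). Only 10 of the 1630 were called, and 1 of the 16 histone genes was among the 1630. These medians therefore do not cover the short histone genes that rose. The named genes that rose, mostly histones, had a median transcript length of 640 bases, and those that fell 2395 bases, against 2417 bases over the 1630. RNA integrity per library was not analysed here, and the part of RNA quality in these differences was not tested.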

How the data were processed

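Fragment counts per Ensembl gene were deposited by the authors as 1 table of raw counts for 27607 genes and 30 libraries. Per the labels and the study's methods, adapters were removed with cutadapt 2.8, reads were aligned to ARS-UCD1.2 with HISAT2 2.2.0, alignments were filtered and duplicates removed with SAMtools 1.10 and biobambam2, and fragments were counted with featureCounts (Subread 2.0.1), without regard to strand. Unstranded counting can merge overlapping and antisense genes, and near-identical copies such as histones can lose or share fragments.

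Libraries were assigned to 24 h, to 1 h and to veins by the study's code, and the 15 libraries stored 3, 6 or 8 h by elimination. Heifer was taken from runs of 6 consecutive library names. This was checked: 15 of 15 libraries at 3 to 8 h and 5 of 5 at 24 h correlated best, over deviations from group means, with the 1 h libraries of their own heifer (r = 0.505 to 0.866 and 0.549 to 0.723, at most 0.292 with another heifer). No 2 libraries were identical or agreed within sampling noise.

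The 14018 genes that exceeded 1 CPM in at least 5 of all 30 libraries were tested. The 24 h group alone has 5 libraries, so a gene above 1 CPM only there could pass. Counts were scaled by library size and fitted with heifer as a block using the quasi-likelihood F test of edgeR 4.0.16 (robust, older fitting method) and the Wald test of DESeq2 1.42.0 in R 4.3.3, with Benjamini-Hochberg adjustment over all genes tested. A gene was called with FDR under 0.05 in both and an edgeR log2 fold change beyond 0.5. Adjusted p was NA in DESeq2 for 273 genes, which were not called. Log2 fold changes are edgeR's and standard errors are DESeq2's. Library measures were compared by exact permutation of the 24 h label within heifers (1024 arrangements, two-sided). On simulated counts for the 14018 genes, 38 of 50 genes changed 1.5-fold, 47 of 50 changed 2-fold and all of 50 changed 4-fold were recovered, with 2 false calls. The simulation gave each change the same size in every heifer, unlike the data, and no drift among the earlier tubes. Its counts of recovered and false calls do not cover those sources of variation.

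Gene names, coordinates and transcript lengths came from annotation columns of the study's tables, 1759 of the genes tested having one. Columns of the study's own results were not used. The members and gene lists were chosen with earlier results of these data known. Genes were named in the text as the 12 largest rises and 12 largest falls among called genes that went the same way in all 5 heifers, the 2 largest without a name in each direction, up to 4 called members of each list or else the member with the smallest p, and a few genes of earlier interest; other list members are named to complete a count. Alternatives changed the scaling, tools, thresholds, filters, fitting options, block and samples, and left out each heifer. A few genes that these rules name are not reported here.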

Additional observations from a re-analysis of the deposited data

Results flagged for a closer look

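In the 5 libraries stored 24 h, 75 measures were examined for a single value far from the other 4 (the levels of the named genes, list sums and library measures), and 6 had one, where chance alone gives about 1 in 20. EPAS1 was at 17.8 CPM in heifer E and at 11.7 to 13.1 CPM in the others. P2RX7 was at 1.70 CPM in heifer A against 3.40 to 3.90 CPM, and TRBV15 at 0.548 CPM in heifer A against 1.75 to 2.21 CPM. GATA2 was at 1.096 CPM in heifer A against 0.330 to 0.505 CPM. ATP4B was at 10.4 CPM in heifer C against 4.92 to 6.32 CPM. Mast cell protease 2 was at 1.58 CPM in heifer E against 0.260 to 0.568 CPM.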

How the results depend on the processing

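The total of 172 genes called stayed within 1.5 times under 14 alternatives (120 to 189 genes) and moved under 6. Without a threshold on the fold change 1008 genes were called (409 higher, 599 lower), among them 15 T and NK markers and 9 Wnt and Notch genes. With a log2 fold change beyond 1 required, 28 were called (17 higher, 11 lower), with 8 histones, 0 T and NK markers, 0 receptors and 0 Wnt and Notch genes. With CPM above 1 in all 20 libraries, 95 were called (27 higher, 68 lower), with 4 histones. With the 3 tubes of a heifer summed, 63 were called (22 higher, 41 lower), with 6 histones, 7 receptors and 3 Wnt and Notch genes. The replicate block by heifer pairs the libraries, and the fit without it called 28 genes (20 higher, 8 lower), with 0 T and NK markers, 1 receptor and 0 Wnt and Notch genes. The cause of these moves was not tested, apart from the thresholds, which by construction admit more or fewer genes. The filter on CPM in all 20 libraries also removes genes before the test.

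Leaving out each heifer in turn gave 59 (without heifer A) to 182 calls (without heifer D), 29 to 65 higher and 30 to 117 lower, 11 to 14 histones, 3 to 10 T and NK markers, 4 to 11 receptors and 3 to 5 Wnt and Notch genes, the lowest counts other than for histones being those without heifer A. Of the 59 genes called without heifer A, 56 were also among the 172. Without the library of heifer A rich in neutrophil markers, an alternative chosen after seeing the data, 184 were called (61 higher, 123 lower), 158 of them also among the 172. The difference in total count ran from -2115000 without heifer B (exact permutation p = 0.0391) to -948800 without heifer E, and that in genes detected from -6.67 without heifer E (p = 0.766, exact) to 61.9 without heifer A; with genes detected counted from 1 count it was -73.2 (exact permutation p = 0.289). Over 51 named genes, 744 values were recomputed: 633 kept their direction and side of the threshold, 106 kept the direction but were no longer called, 5 became called and 0 reversed. Genes at about 1 CPM rest on few counts. A difference under the fold threshold was by definition not a call, whatever its FDR.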

Other observations

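The lowest fitted values of the comparison belonged to 5 genes without a name that were not called. Their log2 fold changes ran from -8.19 to -3.31 with FDR = 0.0853 to 0.229 in edgeR. Among the 3 libraries of heifer A at 3 to 8 h, all 5 genes were highest in the library rich in neutrophil markers, at 9.71 to 327.5 CPM. Outside those 3 libraries they reached at most 34.7 CPM in the comparison, and up to 333.9 CPM in the coccygeal library of heifer B processed at 1 h.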
